A study of Mus musculus with 13 samples.

Results

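SMMC, the smooth-muscle and mesenchymal-like cells of mouse hindlimb muscle, were compared after culture and differentiation with the same sorted population taken fresh from the tissue. The comparison used 6 of the 13 samples of the series: 3 libraries of fresh SMMC and 3 of differentiating SMMC. All came from C57BL/6 wild type mice aged 2 months, and all cells had been sorted as CD31-CD45-Sca1-Vcam1-ITGA7+, that is, without the surface proteins of endothelium, blood cells and many mesenchymal progenitors, without the adhesion receptor VCAM1, and with the laminin receptor integrin alpha 7. Fresh SMMC were harvested after the sort, and differentiating SMMC after culture under conditions that allowed differentiation. The sources used here give neither the length and medium of that culture nor whether libraries came from separate animals or pools, and a p-value therefore reflects the spread between libraries alone, which may be technical. Another 3 SMMC libraries, cultured for 3 days and labelled proliferating, are set beside them to show which genes were lower in culture labelled proliferating. These are separate libraries, so words such as already, regained or return compare groups and do not follow the same cells. Finally, 2 libraries of fresh muscle stem cells (MuSC, sorted alike but Vcam1+) give reference levels for a few genes.

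Mural cells wrap small blood vessels: smooth muscle cells contract with their own actin and myosin isoforms, and pericytes sit on capillaries and sense vasoactive signals. Tenocytes build the collagen and proteoglycan matrix of tendon under transcription factors such as Scx and Mkx, and Schwann cells ensheath nerves with myelin under Sox10 and Egr2. Skeletal muscle forms when myoblasts, driven by Myod1, Myog and Mef2 factors, leave the cell cycle, fuse and fill with sarcomeres, the ordered arrays of thick myosin and thin actin filaments. The gene lists below follow these roles.

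Levels are FPKM (fragment numbers set against transcript length and library size), and differences are on the log2(FPKM + 1) scale, given with the standard error of limma, a linear model fitted across genes. Of 24411 genes, 11928 reached 1 FPKM in at least 3 of the 6 libraries and were tested. At a Benjamini-Hochberg adjusted p under 0.05, limma called 8361 of them (70.1%), 4392 higher (36.8%) and 3969 lower (33.3%) in differentiating SMMC. In 34.8% of genes all differentiating libraries were below all fresh ones, and in 39.0% above. With calls this common, a share of list members near these percentages says nothing about the list. A gene under 1 FPKM in every library of 1 group could pass the filter only through the other group. The direction of its difference was then largely fixed by the filter, for genes lost as for genes gained. The median difference over all genes tested was 0.09; it was 0.02 after TMM scaling, 0.16 after quantile normalization and -0.08 with the ribosomal RNA precursor Rn45s left out and the columns set to an equal total. Spearman's rho across genes lay between 0.535 and 0.621 for a fresh against a differentiating library, and between 0.943 and 0.968 within either group. Genes are not independent replicates. Differentiating replicate 3 stood apart from the other two in tendon and vessel matrix genes, as the values below show.

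The markers of the label were checked first. Fresh libraries carried mural cell genes, with Myh11 at 53.4, 52.9 and 78.9 FPKM and the pericyte gene Rgs5 at 688, 1249.7 and 1573. In differentiating libraries Myh11, the smooth muscle myosin heavy chain that defines mature smooth muscle, stood at 0.00697, 0 and 0 FPKM. Most but not all other smooth muscle genes fell as well. Of the 16 contractile genes described below, 10 were lower (33.3% of all genes tested), 5 higher (36.8%) and 1 not called. Their summed mean level was 2171 FPKM in fresh and 5763 in differentiating SMMC. Most of that rise lay in Des, Tpm1 and Tpm2, which skeletal muscle also makes. Their means were 49.9, 177 and 173 FPKM in fresh and 1158, 993 and 2114 in differentiating SMMC. The differentiating group is therefore called by its label only, as cells cultured from SMMC.

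Of the genes behind the sort, Itga7 stood at 24.9, 48.9 and 72.8 FPKM in fresh and 114, 75.6 and 129 in differentiating libraries. All 3 differentiating libraries were above all 3 fresh ones (log2 difference 1.195 ± 0.37, limma adjusted p = 0.0178), but the call was lost without differentiating replicate 1 or 3, under quantile normalization and without a filter on low values (limma adjusted p from 0.0520 to 0.0636). Vcam1, which the sort selected against, fell from 24.9, 23.4 and 18.5 FPKM to 4.56, 3.95 and 14.2 (log2 difference -1.63 ± 0.40, limma adjusted p = 0.00622). The groups did not overlap, and differentiating replicate 3 was the highest of its group. Pecam1, which encodes CD31, fell from 12.5, 12.01 and 19.7 FPKM to 0, 0.731 and 0 (log2 difference -3.68 ± 0.30, limma adjusted p = 1.66e-05). Ly6a, which encodes Sca1, was at 9.51, 15.9 and 19.9 FPKM in fresh and 9.45, 17.5 and 5.26 in differentiating libraries, with overlap and no call (log2 difference -0.54 ± 0.41, limma adjusted p = 0.266), although it was called lower without differentiating replicate 2 (log2 difference -0.94, limma adjusted p = 0.0468). Ptprc, which encodes CD45, was below the filter, at 0.0290, 0.148 and 0.0882 FPKM in fresh libraries.

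The vascular wall genes showed a loss with a few exceptions. Of 84 genes in 5 lists, 80 passed the filter. Of these, 73 were lower (33.3% of all genes tested) and 6 higher (36.8%) in differentiating SMMC, with a median difference of -3.27. Of the same 80 genes, 74 were already lower in proliferating than in fresh SMMC, where 69.1% of all genes tested were called and 35.3% were called lower. Against proliferating SMMC, 19 were higher and 8 lower in differentiating SMMC, where 40.0% of all genes tested were called, 21.1% higher and 18.9% lower. These 3 comparisons share libraries, so their counts are not independent of each other. In bulk libraries, fewer cells of a type and less RNA per cell cannot be told apart.

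**Figure D1:**
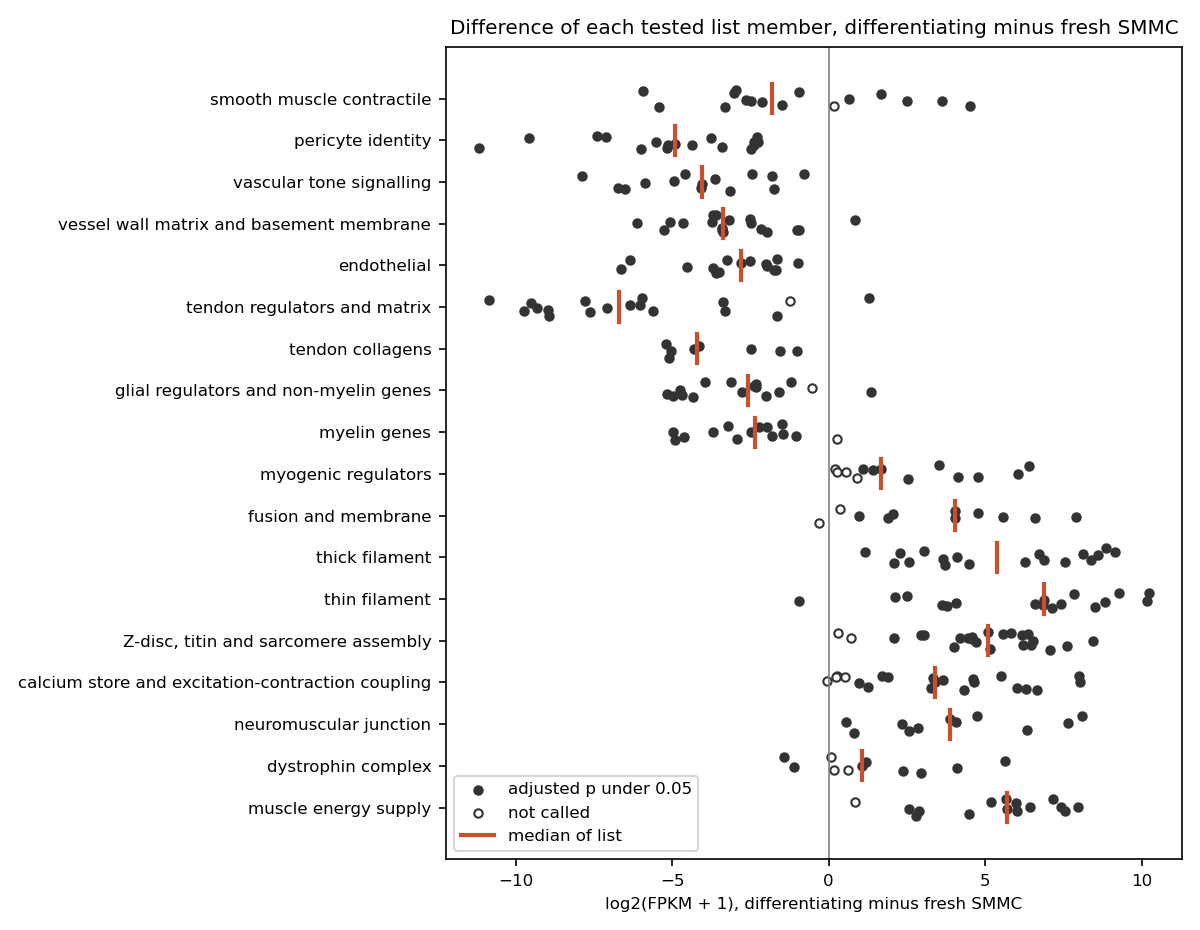
Difference of every tested list member between differentiating and fresh SMMC on the log2(FPKM + 1) scale (x axis), by list (y axis). Filled points passed a limma adjusted p of 0.05, open points did not, and the orange bar is the list's median, which runs from -6.71 for tendon regulators and matrix to 6.89 for the thin filament.

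Contractile genes differed in direction. Of 16 genes, 10 were lower (33.3% of all genes tested), 5 higher (36.8%) and Smtn not called, with a median of -1.803. The share called higher is thus near that of all genes. Myh11 fell from the fresh levels above to a level listed at or near 0 (log2 difference -5.94 ± 0.22, limma adjusted p = 3.29e-07), and in proliferating SMMC it was already at 0.0104, 0.0799 and 0.0391 FPKM. Mylk, the kinase that switches on smooth muscle myosin, fell from 86.6, 110.4 and 156 to 2.11, 2.09 and 1.04 FPKM (log2 difference -5.42 ± 0.27, limma adjusted p = 1.33e-06). Its groups were more than an order of magnitude apart, although it rose from 0.969, 0.458 and 0.0458 FPKM in proliferating SMMC (log2 difference 0.90 ± 0.28, limma adjusted p = 0.0464). Myocd, the coactivator that turns on smooth muscle genes, fell from 6.47, 3.19 and 7.89 to 0.0254, 0.107 and 0 FPKM (log2 difference -2.65 ± 0.29, limma adjusted p = 7.84e-05). Tagln, an actin-binding protein of smooth muscle, stood at 332, 367 and 470.2 FPKM in fresh, 60.98, 43.3 and 50.9 in proliferating and 94.2, 157 and 45.1 in differentiating libraries (log2 difference -2.13 ± 0.39, limma adjusted p = 0.00134). Every differentiating library was below every fresh one, and the mean was 25.3% of fresh.

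The 5 contractile members that were higher were Des, Tpm2, Tpm1, Synpo2 and Acta2. As background, desmin and the tropomyosins 1 and 2 are also parts of the skeletal muscle fibre, the synaptopodin 2 protein sits at the Z-disc, and smooth muscle alpha-actin is also made by young myotubes. Des rose from 50.2, 57.4 and 42.2 to 1179, 1025 and 1269 FPKM (log2 difference 4.51 ± 0.17, limma adjusted p = 3.14e-07), and Tpm2 from 151, 157 and 211 to 2199.7, 2059 and 2082 (log2 difference 3.62 ± 0.17, limma adjusted p = 1.11e-06). Neither gene's groups overlapped, and both differences exceeded the spread between libraries many times over. Synpo2 stood at 11.5, 18.2 and 22.3 FPKM in fresh, 2.05, 7.03 and 11.4 in proliferating and 73.8, 35.8 and 65.8 in differentiating libraries, lower in proliferating and higher than fresh after differentiation (log2 difference 1.68 ± 0.32, limma adjusted p = 0.00157). Acta2 stood at 567, 678 and 907 FPKM in fresh, 734, 518 and 605 in proliferating and 1088, 1322 and 959.97 in differentiating libraries. It thus stayed abundant in all 9 libraries, and all 3 differentiating libraries were above all 3 fresh ones (log2 difference 0.66 ± 0.22, limma adjusted p = 0.0235). The Acta2 call was lost without differentiating replicate 1 or 2, without fresh replicate 1 or 2 and under 4 other settings (limma adjusted p from 0.0509 to 0.112). Smtn, smoothelin, stood at 132, 123 and 131 FPKM in fresh, 43.9, 38.3 and 60.1 in proliferating and 148, 151 and 141 in differentiating libraries and was not called against fresh (log2 difference 0.19 ± 0.13, limma adjusted p = 0.235).

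All 17 pericyte genes were lower than in fresh SMMC (33.3% of all genes tested), with a median of -4.91. All 17 had been lower in proliferating SMMC (35.3%). Steap4, a metalloreductase, fell from 1786, 3570.3 and 4748 FPKM to 0.612, 0.186 and 0.329 (log2 difference -11.16 ± 0.33, limma adjusted p = 1.18e-07), the largest decrease among the named genes. Rgs5, a regulator of G protein signals in pericytes, fell to 0.415, 0.147 and 0.943 FPKM (log2 difference -9.56 ± 0.32, limma adjusted p = 2.14e-07) and was lower even than in proliferating SMMC (3.09, 2.299 and 4.33 FPKM). In all 17 genes every differentiating library was below every fresh one, which held for 34.8% of all genes tested. Pdgfrb, the PDGF receptor by which pericytes are recruited, fell from 106, 175 and 231 to 7.85, 6.34 and 0.548 FPKM (log2 difference -5.14 ± 0.61, limma adjusted p = 1.19e-04), and Notch3, a receptor of mural cells, from 99.3, 206 and 267 to 6.23, 1.05 and 12.8 (log2 difference -4.91 ± 0.65, limma adjusted p = 2.03e-04). The differentiating libraries spread widely in both genes, with replicate 3 the lowest for Pdgfrb and the highest for Notch3. Only Ndufa4l2 and Gja4 were higher in differentiating than in proliferating SMMC. Ndufa4l2, a mitochondrial protein of pericytes, stood at 180.3, 284 and 458 FPKM in fresh, 0.0850, 0.116 and 0.0797 in proliferating and 8.95, 8.03 and 4.77 in differentiating libraries, so that its mean reached 2.36% of fresh.

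All 14 tested genes of vascular tone signalling were lower than in fresh SMMC (33.3% of all genes tested), with a median of -4.06. P2rx1, the untested member, was at a mean of 1.33 FPKM in fresh SMMC. Kcnj8 and Abcc9 encode the pore and the regulatory subunit of the mural ATP-sensitive potassium channel. Kcnj8 fell from 107, 298 and 450.4 FPKM to 0.0644, 0 and 0.0337 (log2 difference -7.89 ± 0.45, limma adjusted p = 2.71e-06) and was at 0.145, 0.185 and 0.144 in proliferating libraries (log2 difference -0.17 ± 0.06, limma adjusted p = 0.0677). Abcc9 stood at 104, 249 and 321 FPKM in fresh, 0.0361, 0.150 and 1.87 in proliferating and 18.5, 10.3 and 19.2 in differentiating libraries, below fresh (log2 difference -3.63 ± 0.41, limma adjusted p = 8.52e-05) but above proliferating (log2 difference 3.45 ± 0.46, limma adjusted p = 0.00242). Whether the changes of the 2 subunits differ was not tested. Prkg1, the cGMP-dependent kinase that relaxes smooth muscle, stood at 12.2, 14.9 and 23.5 FPKM in fresh, 0, 0.189 and 0.150 in proliferating and 8.11, 11.1 and 8.32 in differentiating libraries. It regained the largest share of its fresh level in this list (54.5%) and was still called lower (log2 difference -0.77 ± 0.26, limma adjusted p = 0.0271). Gucy1a1 (Gucy1a3 in the table), a subunit of the nitric oxide receptor that makes cGMP, remained at 0.0172, 0.0674 and 0.0618 FPKM against 30.02, 66.8 and 105 in fresh libraries (log2 difference -5.86 ± 0.40, limma adjusted p = 6.79e-06). The endothelin and angiotensin receptors Ednrb and Agtr1a fell from means of 119 and 58.2 FPKM to 0.0584 and 0.727.

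Of 18 genes of the vessel wall matrix and basement membrane, 17 were lower (33.3% of all genes tested) and Loxl1 higher, with a median of -3.38. Loxl1 and Lox encode enzymes that crosslink elastin and collagen. Loxl1 stood at 62.7, 41.4 and 27.1 FPKM in fresh, 5.19, 3.02 and 5.398 in proliferating and 93.6, 79.7 and 58.2 in differentiating libraries, and its fresh and differentiating groups overlapped (log2 difference 0.86 ± 0.30, limma adjusted p = 0.0320). That call was lost without differentiating replicate 1 or 2, without fresh replicate 2 or 3 and under 4 other settings (limma adjusted p from 0.0620 to 0.128). Against proliferating SMMC it rose (log2 difference 3.82 ± 0.26, limma adjusted p = 4.88e-04). Lox stood at 277, 253 and 211 FPKM in fresh, 7.798, 7.29 and 5.95 in proliferating and 81.7, 92.7 and 20.99 in differentiating libraries, above proliferating (log2 difference 2.797 ± 0.56, limma adjusted p = 0.00941) and below fresh (log2 difference -2.15 ± 0.49, limma adjusted p = 0.00394). Mfap4, a microfibril protein, stood at 728, 451 and 281 FPKM in fresh, 0.326, 0.307 and 1.202 in proliferating and 39.3, 11.9 and 9.97 in differentiating libraries. In Lox and in Mfap4 differentiating replicate 3 was the lowest of its group. Col4a1, a collagen IV chain of the basement membrane, stood at 115 ± 19.95 FPKM in fresh, 8.84 ± 2.95 in proliferating and 8.78 ± 3.07 in differentiating libraries (SD, n = 3), and Lama4, a laminin chain, at 226 ± 39.2, 1.85 ± 0.838 and 3.31 ± 2.998, and neither was called against proliferating SMMC. Sparc, a collagen-binding matrix protein, fell from 1534, 1182 and 997 to 361, 432 and 188 FPKM (log2 difference -1.98 ± 0.31, limma adjusted p = 5.58e-04).

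All 15 tested endothelial genes were lower (33.3% of all genes tested), with a median of -2.81, and Kdr, Erg and Robo4 were below the filter. The sort selected against CD31, an endothelial surface protein, and the cells that these transcripts came from were not determined. Their summed level was 382 to 657 FPKM in fresh and 20.2 to 52.7 in differentiating libraries, and Tie1 was listed at 0 in every differentiating library. The part of endothelial RNA in the decreases of genes that endothelium shares, such as Col4a1 and Lama4, was not tested. Cd36, a fatty acid carrier of capillary endothelium that is also made by skeletal muscle, was at 85.4, 167 and 197 FPKM in fresh, 0.0602, 0.323 and 0.614 in proliferating and 19.1, 16.9 and 8.47 in differentiating libraries. Its differentiating libraries lay between the other groups, below fresh (log2 difference -3.24 ± 0.37, limma adjusted p = 9.31e-05) and above proliferating (log2 difference 3.52 ± 0.34, limma adjusted p = 9.98e-04).

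Tendon genes were lower with few exceptions. All 26 passed the filter, and 24 were lower (33.3% of all genes tested), Scx higher and Bgn not called, with a median of -5.39. In proliferating SMMC 25 of them had been lower than in fresh (35.3% of all genes tested). The fresh libraries themselves differed in these genes, with a summed level of 25562, 18693 and 12982 FPKM for the 18 regulators and matrix genes against a pericyte sum of 3294, 6297 and 8398 FPKM, so that fresh replicate 1 was the highest in tendon and the lowest in pericyte genes. The summed tendon level was 96.7, 111 and 115 FPKM in proliferating and 361, 444 and 89.2 in differentiating libraries, so differentiating replicate 3 was the lowest of all 9 libraries while the other two were above every proliferating one.

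Among the regulators, Scx, the transcription factor that starts the tendon program, rose from 2.91, 1.91 and 2.11 FPKM to 5.36, 7.296 and 8.73 (log2 difference 1.29 ± 0.24, limma adjusted p = 0.00156). Its groups did not overlap, and it was also higher than in proliferating SMMC (log2 difference 1.203 ± 0.22, limma adjusted p = 0.00684). Mkx, the homeobox factor that maintains tendon, fell from 67.2, 58.3 and 31.4 to 4.62, 9.42 and 1.25 FPKM (log2 difference -3.32 ± 0.52, limma adjusted p = 5.61e-04). The 2 regulators thus differed in direction. The structural genes were lower, like Mkx. Tnmd, a membrane protein of mature tenocytes, stood at 4526, 2638 and 1642 FPKM in fresh and 4.42, 6.16 and 0.314 in differentiating libraries (log2 difference -9.51 ± 0.61, limma adjusted p = 4.98e-06), and it was not called against proliferating SMMC (1.37, 5.09 and 2.87 FPKM, log2 difference -0.04 ± 0.70, limma adjusted p = 0.971). Fmod, Chad, Prelp and Kera, small leucine-rich repeat proteins of the tendon matrix, were at means of 3012, 1001, 597 and 576 FPKM in fresh and 0.615, 0.0731, 0.170 and 0.0731 in differentiating libraries. Thbs4, a thrombospondin of tendon matrix and the most abundant tendon gene in fresh SMMC, fell from 6514, 5756 and 4137 to 14.98, 12.7 and 1.68 FPKM (log2 difference -9.33 ± 0.60, limma adjusted p = 4.92e-06). Tnmd, Fmod, Chad, Prelp, Kera and Thbs4 were all among the 12 largest decreases.

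Of the tendon genes, Scx, Ogn, Cilp2, Comp and Col1a2 were higher in differentiating than in proliferating SMMC. These are 5 of 26 genes, where 21.1% of all genes tested were higher, so the share is near that of all genes. The count also rests on single libraries: it was 14 without differentiating replicate 3, 2 without differentiating replicate 1, differentiating replicate 2 or proliferating replicate 2, and 3 without proliferating replicate 1 or 3. The values of collagen I show the split. Col1a1 stood at 1833, 1169 and 1054 FPKM in fresh, 2.88, 4.06 and 5.77 in proliferating and 89.6, 69.9 and 6.26 in differentiating libraries, and Col1a2 at 2634, 1579 and 1245, 7.76, 6.47 and 10.3 and 91.9, 98.6 and 15.4. In both chains differentiating replicates 1 and 2 were far above the proliferating libraries and replicate 3 was only slightly so, and all were below fresh (log2 difference -5.19 ± 0.83, limma adjusted p = 6.04e-04 for Col1a1 and log2 difference -5.02 ± 0.64, limma adjusted p = 1.73e-04 for Col1a2). Ogn, osteoglycin, stood at 377, 363 and 242 FPKM in fresh, 4.82, 3.53 and 12.6 in proliferating and 42.9, 33.6 and 19.3 in differentiating libraries (log2 difference 2.14 ± 0.48, limma adjusted p = 0.0153 against proliferating). Bgn, biglycan, was at 464, 257 and 169 FPKM in fresh and 172, 247 and 35.4 in differentiating libraries, overlapping and not called (log2 difference -1.24 ± 0.67, limma adjusted p = 0.128), but called lower without differentiating replicate 2 (log2 difference -1.79, limma adjusted p = 0.0394). The vessel matrix sum split in the same way, at 772, 854 and 374 FPKM in the 3 differentiating libraries, and the count of vascular wall genes above proliferating was 27 rather than 19 without differentiating replicate 3. In that library the summed cell cycle genes were the highest of the group (179, 273 and 384 FPKM in replicates 1 to 3), as was Myf5, a marker of myoblasts (11.6, 3.66 and 33.6 FPKM), and the part of these in the split was not tested.

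**Figure D2:**
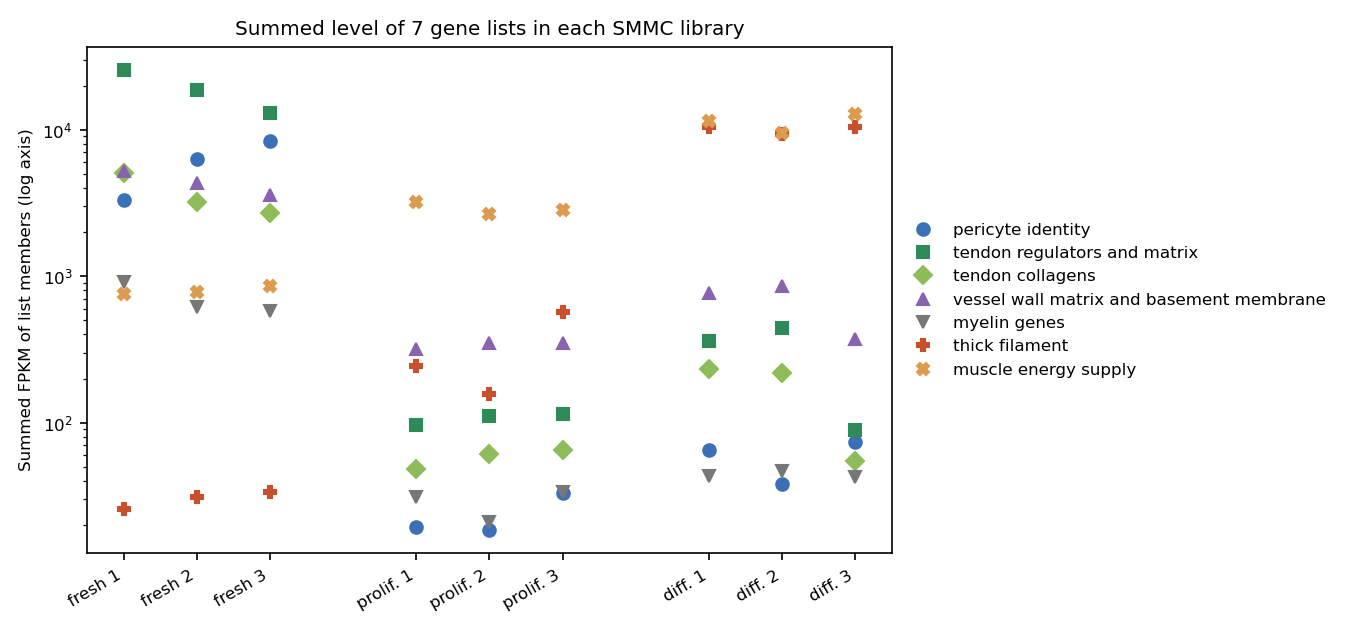
Summed FPKM of the members of 7 lists (y axis, log scale) in each of the 9 SMMC libraries (x axis). Tendon and pericyte sums fall from at least 12982 and 3294 FPKM in fresh libraries to at most 444 and 73.3 in differentiating ones, differentiating replicate 3 lies below replicates 1 and 2 for tendon and vessel matrix, and the thick filament sum rises from at most 33.5 to at least 9356.

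Glial genes were mostly lower. Of 34 genes, 30 passed the filter, and 27 were lower (33.3% of all genes tested), Erbb3 higher and Gap43 and Drp2 not called, with a median of -2.43. Sox10, the transcription factor that fixes glial identity, stood at 23.4, 17.7 and 20.01 FPKM in fresh, 0.996, 0.376 and 0.931 in proliferating and 0.145, 0.0526 and 0 in differentiating libraries. It fell against fresh (log2 difference -4.32 ± 0.21, limma adjusted p = 1.22e-06) and again against proliferating SMMC (log2 difference -0.71 ± 0.16, limma adjusted p = 0.0148). Kcna1, Ptprz1 and Cdh19, a potassium channel, a receptor phosphatase and a cadherin of Schwann cells, fell from means of 53.5, 41.3 and 37.9 FPKM to 0.636, 0.423 and 0.295. Gfap, an intermediate filament of glia, was at 2.83, 4.17 and 5.13 FPKM in fresh libraries and listed at 0 in all 3 differentiating ones.

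Of 14 tested myelin genes 13 were lower (33.3% of all genes tested). Pmp22, the most abundant of them, fell from 622, 472 and 437 to 16.9, 25.4 and 17.2 FPKM (log2 difference -4.62 ± 0.21, limma adjusted p = 8.99e-07). Mbp, which compacts myelin, fell from 77.4, 29.5 and 33.9 to 0.587, 0.313 and 0.264 FPKM (log2 difference -4.98 ± 0.35, limma adjusted p = 7.90e-06). No fresh library overlapped a differentiating one in either gene. Against proliferating SMMC 4 of the 30 glial genes were higher, namely Egr2, Cnp, Plekhb1 and Erbb3, and 3 were lower, where 21.1% and 18.9% of all genes tested were called, so neither share is above that of all genes. The first count was 2 without proliferating replicate 1 or 2, and the second 5 without proliferating replicate 2. Egr2, the factor that starts myelination and also an immediate early gene, stood at 49.6, 51.3 and 55.7 FPKM in fresh, 1.32, 0.416 and 1.15 in proliferating and 8.26, 14.2 and 6.57 in differentiating libraries. It was still below fresh (log2 difference -2.38 ± 0.26, limma adjusted p = 6.97e-05). Cnp, an enzyme of the myelin sheath found in many cells, reached 46.3% of its fresh mean, at 14.6, 15.4 and 16.4 FPKM against 44.7, 28.3 and 27.3. Erbb3, the neuregulin receptor of Schwann cells that is also present at neuromuscular junctions, rose from 1.27, 0.456 and 1.71 to 6.43, 2.42 and 4.93 FPKM (log2 difference 1.36 ± 0.35, limma adjusted p = 0.00768). Gap43 (means 1.22 and 0.760 FPKM) overlapped between the groups and was called lower only without differentiating replicate 2 (log2 difference -1.098, limma adjusted p = 0.0136), and Drp2 (means 3.81 and 5.02 FPKM) overlapped as well (log2 difference 0.26 ± 0.31, limma adjusted p = 0.471).

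Read as a share of the fresh mean, the median vascular wall gene stood at 2.44% in proliferating and 5.02% in differentiating SMMC, the median tendon gene at 0.334% and 1.96%, and the median glial gene at 3.38% and 1.16%. At least 50% of the fresh mean was reached by 9 of 80 vascular wall genes, 2 of 26 tendon genes (Scx and Bgn) and 3 of 30 glial genes (Erbb3, Gap43 and Drp2). Less than 10% was reached by 50, 21 and 22 genes, and less than 1% by 20, 10 and 10. Among the 5343 tested genes with a fresh mean of at least 10 FPKM, 3513 reached 50% and 584 stayed under 10%. That floor was not set for the lists, so the 2 kinds of count are not alike. Scx, Erbb3, Gap43 and Drp2 had fresh means of 2.31, 1.15, 1.22 and 3.81 FPKM and lie below it. A return in part, lower in proliferating than in fresh SMMC and higher in differentiating than in proliferating, was met by 15 of the 80 vascular wall, 4 of the 26 tendon and 3 of the 30 glial genes, and by 1132 of all genes tested (9.49%). Only genes called lower in proliferating SMMC could meet it: 74 vascular wall, 25 tendon and 26 glial genes, and 4207 of all tested. Far more of the list genes had thus fallen, and the 9.49% is no measure for the list shares. Among the genes that could meet it, a return in part was met by 15 of 74, 4 of 25 and 3 of 26. Of all genes tested it was met by 1132 of 4207, and in none of the 3 programs was the share above that. The tendon and glial counts rest on the calls against proliferating SMMC, which ranged from 2 to 14 and from 2 to 4 genes when 1 library was left out. Of the genes with a return in part, 12, 4 and 3 were still called below fresh, as were 473 genes among all tested (3.97%). Of the 1132 genes, 467 were not called against fresh and 192 were above it.

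**Figure D3:**
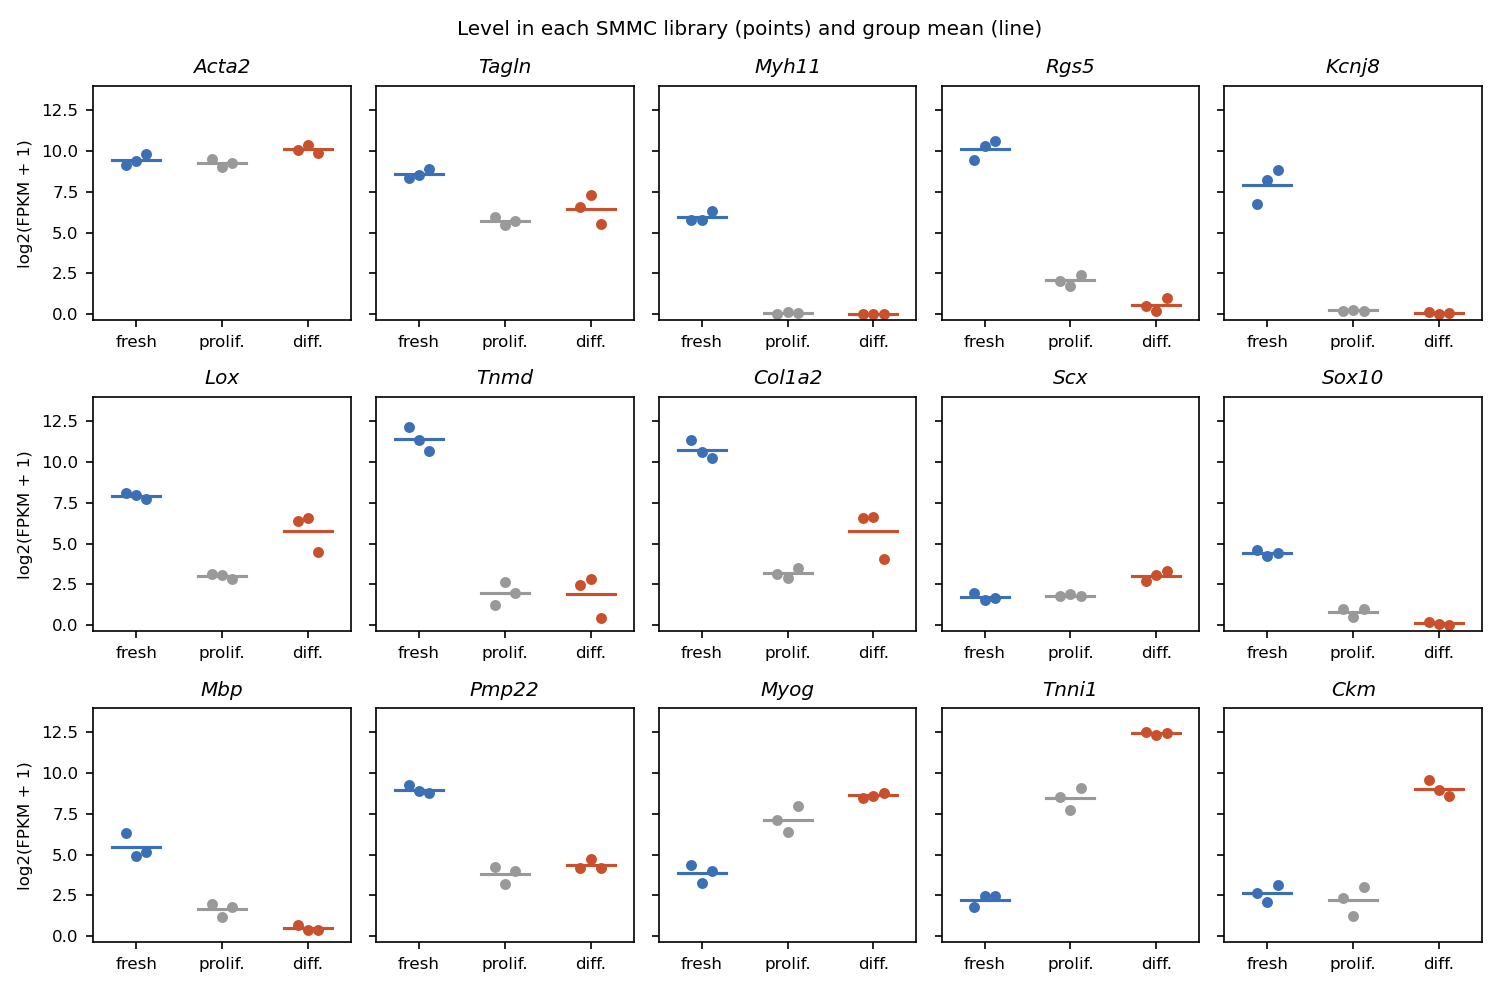
Level of 15 genes in each SMMC library (points, log2(FPKM + 1) on the y axis) with the group mean (line), for fresh, proliferating (prolif.) and differentiating (diff.) libraries. Acta2 stays at a high level throughout, Myh11, Rgs5, Kcnj8, Sox10 and Mbp stay low, Lox and Col1a2 rise in part with replicate 3 lowest, and Myog, Tnni1 and Ckm are highest after differentiation.

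Skeletal muscle genes were gained. Of 143 genes in 9 lists, 140 passed the filter. Of these, 121 were higher (36.8% of all genes tested), 3 lower (33.3%) and 16 not called, with a median of 4.17. Against proliferating SMMC 118 of the 140 were higher (21.1% of all genes tested) and 4 lower (18.9%), the last count being 2 without differentiating replicate 1 or proliferating replicate 2 or 3 and 6 without differentiating replicate 3. Against fresh SMMC 78 were already higher in proliferating SMMC (33.8% of all genes tested). The summed level of the 143 genes was 3063, 3268 and 3335 FPKM in fresh, 13809, 11204 and 15851 in proliferating and 83635, 71716 and 85989 in differentiating libraries. The 12 largest increases under the naming rule were all muscle genes: Tnni1, Tnnc1, Smpx, Tnnt2, Myl1, Myl4, Tnnc2, Myh8, Tnnt3, Actn2, Mylpf and Myh3. Smpx, a small protein of striated muscle, is in none of the lists, and the other 11 are. Several muscle genes, such as Myh3, Myh8 and Mylpf, were under 1 FPKM in every fresh library. They could pass the filter only through the differentiating libraries, so the direction of their calls was largely fixed by it.

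Of 13 myogenic regulators 9 were higher (36.8% of all genes tested). Myod1, the factor that commits cells to muscle, stood at 81.9, 90.04 and 44.9 FPKM in fresh, 1097, 1094 and 1016 in proliferating and 343, 362 and 532 in differentiating libraries. It was above fresh (log2 difference 2.53 ± 0.28, limma adjusted p = 8.66e-05) but below proliferating SMMC (log2 difference -1.400 ± 0.19, limma adjusted p = 0.00249). Myog, which drives terminal differentiation, stood at 19.5, 8.64 and 14.6 FPKM in fresh, 137, 81.1 and 247 in proliferating and 358, 392 and 446 in differentiating libraries, rising at each comparison (log2 difference 4.77 ± 0.26, limma adjusted p = 2.27e-06 against fresh). Mef2c, a partner of these factors, took another course: 15.1, 26.98 and 37.7 FPKM in fresh, 7.36, 4.42 and 14.4 in proliferating and 311, 265 and 315 in differentiating libraries. It was lower in proliferating than in fresh SMMC (log2 difference -1.55 ± 0.43, limma adjusted p = 0.0114) and above both after differentiation (log2 difference 3.52 ± 0.29, limma adjusted p = 1.73e-05). Myf6, the regulator found in mature fibres, rose from 0.0455, 0.105 and 0.0627 to 23.96, 12.2 and 19.7 FPKM (log2 difference 4.14 ± 0.27, limma adjusted p = 5.25e-06), and Hes6 and Smyd1, a differentiation cofactor and a methyltransferase of the sarcomere, rose 66.8-fold and 84.4-fold on this scale. The 4 regulators not called were Myf5, Mef2a, Six4 and Eya1. Myf5 was called higher without differentiating replicate 2 (log2 difference 1.63, limma adjusted p = 0.0167), its lowest library (levels of 11.6, 3.66 and 33.6 FPKM in replicates 1 to 3), and Mef2a without differentiating replicate 1 (log2 difference 0.92, limma adjusted p = 0.0195).

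The fusion genes rose with them in 9 of 11 cases (36.8% of all genes tested). Mymk (Tmem8c in the table), the membrane protein that lets myoblasts fuse, stood at 18.6, 10.8 and 13.6 FPKM in fresh, 186, 121 and 187 in proliferating and 1247, 1176 and 2014 in differentiating libraries (log2 difference 6.58 ± 0.26, limma adjusted p = 4.04e-07). Mymx (Gm7325 in the table), the micropeptide that acts with it, rose from 0.0995, 0.616 and 0.770 to 71.4, 63.2 and 71.5 FPKM (log2 difference 5.57 ± 0.23, limma adjusted p = 5.42e-07). In both genes every differentiating library was above every fresh one. Cav3, the caveolin of the muscle membrane, rose 238-fold, and Bin1 and Ncam1, which shape the membrane and mark new myotubes, rose 16.5-fold and 16.5-fold. Jam3 and Myof were not called.

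All 18 thick filament genes rose against fresh (36.8% of all genes tested) and against proliferating SMMC (21.1%), with a median of 5.38 against fresh. For members under 1 FPKM in every fresh library, such as Myh3 and Myh8, the filter largely fixed this direction. Among the myosin heavy chains, Myh3, the embryonic form, rose from 0.166, 0.333 and 0.449 to 466, 259 and 407 FPKM (log2 difference 8.13 ± 0.24, limma adjusted p = 1.18e-07), and Myh8, the perinatal form, from 0.487, 0.679 and 0 to 589.9, 377 and 649.98 (log2 difference 8.599 ± 0.27, limma adjusted p = 1.61e-07). The adult fast form Myh1 rose from 0.734, 0.769 and 0.718 to 172, 159.9 and 317 FPKM (log2 difference 6.89 ± 0.26, limma adjusted p = 3.54e-07). The adult forms Myh4, Myh2 and Myh7 reached lower means, of 17.2 ± 8.23, 9.04 ± 2.65 and 8.702 ± 5.33 FPKM (SD, n = 3), against 539 ± 143 for Myh8. FPKM is per transcript length, so these levels can be set side by side, with the limit that reads of near-identical myosin genes may have been split between them. The light chains Myl1 and Myl4 reached 3820.1, 3764 and 4412 and 3236, 3035 and 2696 FPKM, from fresh levels of 6.25, 7.9004 and 4.55 and 6.83, 3.96 and 5.76. Differentiating replicate 2 was the lowest of its group in the thick filament sum (10395, 9356 and 10411 FPKM in replicates 1 to 3).

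In the thin filament 16 of 17 genes rose (36.8% of all genes tested), with a median of 6.89. Tnni1, the slow skeletal troponin I, stood at 2.44, 4.52 and 4.39 FPKM in fresh, 374, 214 and 539.6 in proliferating and 5975, 5110.5 and 5685 in differentiating libraries (log2 difference 10.22 ± 0.21, limma adjusted p = 2.31e-08). This 1193-fold difference on the log2(FPKM + 1) scale was the largest increase among the named genes, and Tnnc1, slow troponin C, was next at 1155-fold. The fast forms rose as well, Tnnc2 453-fold and Tnnt3 363-fold, and so did the cardiac and embryonic troponin T gene Tnnt2, 627-fold. Acta1, skeletal alpha-actin, reached the highest level of any list member, from 92.1, 41.5 and 37.5 FPKM in fresh to 10282, 7939 and 9524 (log2 difference 7.43 ± 0.32, limma adjusted p = 6.82e-07), and Actc1, the cardiac and embryonic form, went from 17.7, 13.8 and 15.3 to 4354, 3687 and 3453 (log2 difference 7.85 ± 0.16, limma adjusted p = 2.48e-08). The exception was Tpm3, a tropomyosin gene with slow muscle and non-muscle forms, which fell from 364, 349.97 and 250.05 to 148, 202 and 151 FPKM (log2 difference -0.93 ± 0.20, limma adjusted p = 0.00310).

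Promoter sequence was read for the genes that moved, because the factors above bind short motifs. RefSeq promoters (build GRCm38.p6) were found for 83 of the 121 skeletal muscle genes that were higher, for 47 of the 73 vascular wall genes that were lower and for 8956 of the 11928 genes tested, and the 250 bases before the start were searched on both strands. Some genes have several promoters, and a gene was counted if any of its promoters held the motif. The E-box CAGCTG, a core that myogenic factors bind, was held by 33 of the 83 muscle genes (39.8%), 11 of the 47 vascular wall genes (23.4%) and 14.7% of all genes with a promoter. The MEF2 site was held by 11 of 83 (13.3%), 1 of 47 and 2.24%, and the CArG box, which binds serum response factor, by 6 of 83 (7.23%), 1 of 47 and 1.54%. Of the lower tendon and glial genes, 16 of 24 and 18 of 27 had a promoter. The E-box was held by 2 of the 16 (12.5%) and 2 of the 18 (11.1%). The MEF2 site and the CArG box were each held by 0 of the 16 and 1 of the 18. A match is a description of letters and not a binding site, and no match says only that these letters are not in this window. The 5 promoters printed are the most raised troponin gene, an acetylcholine receptor gene with 2 matches, a myosin heavy chain, skeletal alpha-actin, and the one lower vascular wall gene with a CArG box, Myl9. Capitals mark the motif, each sequence runs 5′ to 3′ on the strand of the gene and ends 1 base before the start.
Tnni1 E-box: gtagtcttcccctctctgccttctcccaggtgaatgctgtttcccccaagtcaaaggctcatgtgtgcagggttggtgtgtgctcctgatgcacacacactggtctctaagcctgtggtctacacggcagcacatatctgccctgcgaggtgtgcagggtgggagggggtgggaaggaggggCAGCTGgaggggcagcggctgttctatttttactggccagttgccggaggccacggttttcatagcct
Chrna1 E-box: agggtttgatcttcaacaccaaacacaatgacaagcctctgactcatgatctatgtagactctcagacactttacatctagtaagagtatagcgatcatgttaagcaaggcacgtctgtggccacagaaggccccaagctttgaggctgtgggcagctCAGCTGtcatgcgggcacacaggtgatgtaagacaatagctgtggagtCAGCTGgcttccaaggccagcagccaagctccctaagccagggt
Myh8 MEF2: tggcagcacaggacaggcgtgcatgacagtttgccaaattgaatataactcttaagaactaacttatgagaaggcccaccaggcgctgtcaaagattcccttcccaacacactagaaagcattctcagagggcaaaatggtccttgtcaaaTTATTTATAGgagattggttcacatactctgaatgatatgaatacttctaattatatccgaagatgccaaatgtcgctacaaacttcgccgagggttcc
Acta1 CArG: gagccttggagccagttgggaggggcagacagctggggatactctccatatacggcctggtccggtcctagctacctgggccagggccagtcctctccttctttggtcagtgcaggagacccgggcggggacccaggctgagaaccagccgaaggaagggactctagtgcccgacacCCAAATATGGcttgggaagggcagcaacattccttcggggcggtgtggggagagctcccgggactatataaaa
Myl9 CArG: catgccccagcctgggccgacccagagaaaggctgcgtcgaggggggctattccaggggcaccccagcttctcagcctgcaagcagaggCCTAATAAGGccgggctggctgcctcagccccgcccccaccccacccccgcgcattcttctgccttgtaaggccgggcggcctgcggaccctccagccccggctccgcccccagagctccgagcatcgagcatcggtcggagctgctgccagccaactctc

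The Tnni1 window lies at chr1:135799171-135799420 on the plus strand, with the E-box 68 to 63 bases before the start. Chrna1 lies at chr2:73580339-73580588 on the minus strand, with E-boxes at 92 to 87 and 44 to 39 bases. The Myh8 window is chr11:67276874-67277123 (plus strand), with the MEF2 site at 99 to 90 bases. The Acta1 window is chr8:123894776-123895025 (minus strand), with the CArG box at 73 to 64 bases, and that of Myl9 is chr2:156775214-156775463 (plus strand), with the CArG box at 161 to 152 bases. The Acta1 window also holds a CAGCTG E-box, left in lower case because capitals mark only the motif named with the sequence. The CArG box was thus present before a gene that rose, Acta1, and before one that fell, Myl9, the regulatory light chain of smooth muscle myosin, which went from 95.2, 118 and 169.7 to 15.3, 15.7 and 12.8 FPKM (log2 difference -3.01 ± 0.22, limma adjusted p = 9.99e-06).

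Paralogous isoforms moved in opposite directions within 3 protein families. Among myosin heavy chains Myh11 fell while Myh3, Myh8 and Myh1 rose. Among the actins, Actg2, the enteric smooth muscle form, fell from 20.9, 21.8 and 20.7 to 5.25, 4.005 and 0.953 FPKM (log2 difference -2.49 ± 0.40, limma adjusted p = 6.03e-04) while Acta1 and Actc1 rose. Among the leiomodins, which nucleate actin filaments, Lmod1, the smooth muscle form, fell from 9.18, 17.2 and 21.7 to 1.48, 0.654 and 1.12 FPKM (log2 difference -2.97 ± 0.33, limma adjusted p = 7.58e-05). The striated forms rose, Lmod2 from 0.419, 0.503 and 1.05 to 30.5, 20.01 and 30.7 FPKM (log2 difference 4.08 ± 0.26, limma adjusted p = 4.46e-06) and Lmod3 from 0.0441, 0.296 and 0.149 to 143, 136 and 130.3 (log2 difference 6.89 ± 0.18, limma adjusted p = 6.93e-08). Lmod1 was nevertheless higher than in proliferating SMMC, where it stood at 0.171, 0.139 and 0.234 FPKM (log2 difference 0.80 ± 0.16, limma adjusted p = 0.00940). Acta2 was the smooth muscle isoform without such a loss.

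**Figure D4:**
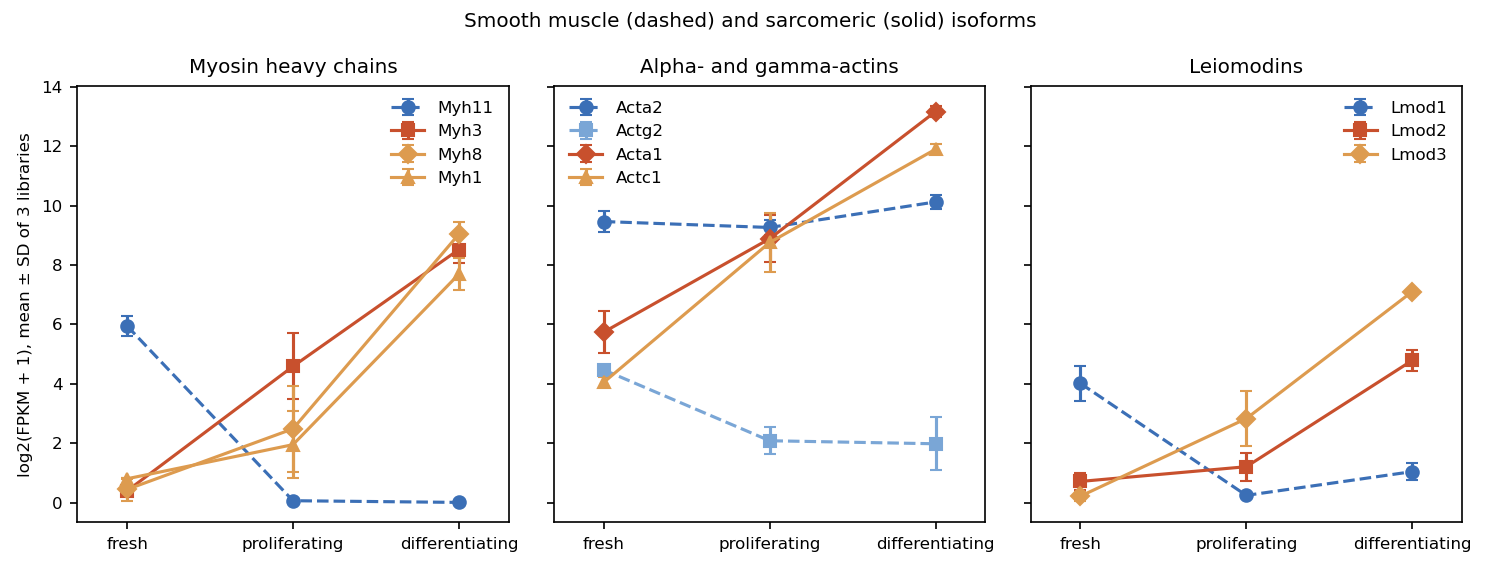
Level of smooth muscle (dashed) and sarcomeric (solid) isoforms of myosin heavy chain, actin and leiomodin, as the mean ± SD of log2(FPKM + 1) over 3 libraries (y axis), in fresh, proliferating and differentiating SMMC (x axis). Myh11, Actg2 and Lmod1 end below their fresh level, the sarcomeric forms end above it, and Acta2 differs least between the groups.

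Z-disc, titin and assembly genes rose in 21 of 23 cases (36.8% of all genes tested), with a median of 5.11. Actn2, an alpha-actinin that anchors thin filaments, rose from 2.54, 1.38 and 1.82 to 1301, 733 and 1037 FPKM (log2 difference 8.44 ± 0.24, limma adjusted p = 1.07e-07), and Ttn, the spring of the sarcomere, from 7.25, 5.65 and 3.03 to 589, 334 and 614 (log2 difference 6.36 ± 0.32, limma adjusted p = 1.37e-06). Tcap, the titin cap, rose from 4.58, 2.99 and 2.15 FPKM in fresh and 9.78, 5.03 and 15.8 in proliferating to 598, 408 and 694 in differentiating libraries. The groups were apart in all 3 genes. Flnc, filamin C, was not called against fresh (148 ± 32.9 and 184 ± 36.4 FPKM, SD, n = 3, log2 difference 0.32 ± 0.22, limma adjusted p = 0.230), though it was lower in proliferating SMMC (mean 47.7 FPKM). The other member not called was Fbxo32, a ubiquitin ligase (log2 difference 0.72 ± 0.37, limma adjusted p = 0.114).

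Of 21 tested genes of the calcium store and excitation-contraction coupling 17 rose (36.8% of all genes tested) and 4 were not called. Cacna1s, the voltage sensor of the muscle membrane, was listed at 0 in all 3 fresh libraries and stood at 0.333, 0.428 and 1.87 FPKM in proliferating and 22.7, 13.4 and 22.8 in differentiating libraries. Ryr1, the calcium release channel it opens, rose from 0.133, 0.168 and 0.0107 to 13.2, 8.03 and 10.98 FPKM (log2 difference 3.39 ± 0.23, limma adjusted p = 6.98e-06). Casq1 and Casq2, the calcium buffers of the store, started from different levels. Casq1, the skeletal form, rose from 2.52, 1.36 and 0.539 to 588, 521 and 749 FPKM (log2 difference 8.04 ± 0.30, limma adjusted p = 3.14e-07). Casq2, the form of heart and slow muscle, was already at 60.96, 133 and 159.8 FPKM in fresh libraries, fell to 35.8, 18.3 and 71.2 in proliferating and rose to 1103, 1067 and 1172 in differentiating ones (log2 difference 3.34 ± 0.32, limma adjusted p = 3.69e-05). Atp2a1, the calcium pump of fast muscle, rose 79.04-fold, while Atp2a2, the pump of slow and smooth muscle, was not called (log2 difference 0.52 ± 0.25, limma adjusted p = 0.0980) except without differentiating replicate 2 (log2 difference 0.81, limma adjusted p = 0.00488). Asph, Jph2 and Cacna2d1 were not called either.

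All 11 genes of the neuromuscular junction rose (36.8% of all genes tested), with a median of 3.89. Chrna1, the alpha subunit of the muscle acetylcholine receptor, stood at 7.26, 4.07 and 1.78 FPKM in fresh, 689.5, 564 and 563 in proliferating and 954, 941 and 1046 in differentiating libraries (log2 difference 7.65 ± 0.34, limma adjusted p = 8.30e-07). Chrng, the fetal gamma subunit, reached 449, 532 and 621 FPKM from 1.71, 0.610 and 0.681 (log2 difference 8.09 ± 0.24, limma adjusted p = 1.18e-07). Chrne, the adult epsilon subunit that takes its place at mature junctions, was listed at 0 in all fresh and proliferating libraries and stood at 5.05, 6.06 and 2.06 FPKM in differentiating ones. The fetal subunit thus stood far above the adult one in every differentiating library, on the per-length FPKM scale. Chrnd, Rapsn and Musk, the delta subunit, its anchor and the receptor kinase of the junction, rose 81.4-fold, 14.9-fold and 5.89-fold. Lrp4, the agrin receptor, rose least, from a mean of 1.03 to 2.005 FPKM (log2 difference 0.57 ± 0.20, limma adjusted p = 0.0335).

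The dystrophin complex had the smallest median among the 9 muscle lists, at 1.08. Of its 11 genes 6 were higher (36.8% of all genes tested) and 2 lower (33.3%). Of its sarcoglycans, Sgca rose from 3.51, 4.9005 and 3.44 to 82.1, 79.4 and 88.3 FPKM (log2 difference 4.101 ± 0.18, limma adjusted p = 7.53e-07). Dystrophin and utrophin, which link the complex to actin, were both lower. Utrn, utrophin, which many non-muscle cells make, fell from 302, 378 and 448 to 147, 122 and 141 FPKM (log2 difference -1.44 ± 0.18, limma adjusted p = 1.54e-04). Dmd, dystrophin, stood at 13.3, 16.8 and 20.5 FPKM in fresh, 0.106, 0.233 and 0.297 in proliferating and 9.24, 5.51 and 7.42 in differentiating libraries, below fresh (log2 difference -1.097 ± 0.24, limma adjusted p = 0.00357) and above proliferating (log2 difference 2.77 ± 0.21, limma adjusted p = 6.34e-04). Dag1, dystroglycan, was at 153 ± 9.87 FPKM in fresh and 173 ± 75.5 in differentiating libraries (SD, n = 3) and was not called (log2 difference 0.07 ± 0.32, limma adjusted p = 0.846), although with Sspn it was called higher without differentiating replicate 2 (log2 difference 0.48, limma adjusted p = 0.0362 for Dag1 and log2 difference 0.92, limma adjusted p = 0.00946 for Sspn). Sgcd, which is also a smooth muscle sarcoglycan, was not called (log2 difference 0.18 ± 0.19, limma adjusted p = 0.435) except under quantile normalization (log2 difference 0.58, limma adjusted p = 0.0205).

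Genes of muscle energy supply rose in 14 of 15 tested cases (36.8% of all genes tested), with a median of 5.69. Ckm, the muscle creatine kinase, stood at 5.15, 3.25 and 7.798 FPKM in fresh, 4.02, 1.33 and 6.92 in proliferating and 770.5, 488 and 386 in differentiating libraries, and was called against fresh but not between proliferating and fresh (log2 difference 6.43 ± 0.32, limma adjusted p = 1.36e-06 against fresh and log2 difference -0.44 ± 0.46, limma adjusted p = 0.416 for proliferating against fresh). Eno3, the muscle enolase, rose in both steps, from 7.34, 11.3 and 11.1 FPKM in fresh and 974, 804 and 744 in proliferating to 1939, 1750.3 and 2405 in differentiating libraries. Mb, myoglobin, reached 574, 357 and 647 FPKM from 1.12, 1.26 and 0.751 (log2 difference 7.97 ± 0.24, limma adjusted p = 1.34e-07), and Aldoa, the muscle aldolase, 5270.1, 4834 and 5935 from 698, 713 and 767 (log2 difference 2.87 ± 0.17, limma adjusted p = 3.11e-06). Slc2a4, the insulin-responsive glucose transporter, was not called (11.96 ± 8.62 and 18.998 ± 4.61 FPKM, SD, n = 3, log2 difference 0.84 ± 0.46, limma adjusted p = 0.136) except without fresh replicate 3 (log2 difference 1.35, limma adjusted p = 0.0135).

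Markers of other cells and states moved alongside. Of 16 tested muscle stem cell genes, 8 were lower (33.3% of all genes tested) and 2 higher (36.8%, and 4 genes without differentiating replicate 2). Their summed level was 945 to 1386 FPKM in fresh and 813 to 977 in differentiating libraries. Pax7, the factor that defines these cells, stood at 0.367, 1.32 and 1.83 FPKM in fresh, 1.42, 4.74 and 4.31 in proliferating and 1.66, 0.131 and 2.78 in differentiating libraries and was not called (log2 difference 0.11 ± 0.45, limma adjusted p = 0.833), against 19.3 and 20.3 FPKM in the 2 MuSC libraries. The MuSC libraries differed from the SMMC ones in make-up, which limits a comparison of levels. Rn45s took 0.0253% and 0.0244% of their summed FPKM, against 6.89% to 10.2% in fresh SMMC. Muscle stem cells form skeletal muscle in culture, and their part in the gain was not tested. Fibro-adipogenic progenitor genes were lower in 12 of 15 cases (33.3% of all genes tested), with sums of 2562 to 5082 FPKM in fresh and 219 to 452 in differentiating libraries. Of 16 blood cell genes only 4 passed the filter, and these were lower (33.3%). The list sums were 116 to 525 FPKM in fresh and 2.204 to 5.38 in differentiating libraries. Genes this low after differentiation could pass mostly through the fresh libraries, so the direction of these calls was largely fixed by the filter. Lyz2, a myeloid lysozyme, made up most of the fresh blood cell sum, at 515, 155 and 98.96 FPKM. The part of these cells in the decreases of genes they share with the vessel wall or tendon was not tested.

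Cell cycle genes were higher than in fresh SMMC in 13 of 14 cases (36.8% of all genes tested) and lower than in proliferating SMMC in 13 (18.9%). Ccnb1, a mitotic cyclin, stood at 0.787, 1.13 and 0.0937 FPKM in fresh, 264, 246 and 231 in proliferating and 21.2, 41.9 and 43.5 in differentiating libraries. The differentiating libraries thus lay between the other groups and did not return to the fresh level (log2 difference 4.44 ± 0.35, limma adjusted p = 1.39e-05). Immediate early and heat shock genes, which are known to be induced when tissue is dissociated, were lower in 19 of 20 cases (33.3% of all genes tested). Their sums were 12042 to 19252 FPKM in fresh and 693 to 1349 in differentiating libraries. Fos stood at 1082, 1499 and 1567 FPKM in fresh and 8.62, 8.69 and 8.04 in differentiating libraries (log2 difference -7.18 ± 0.18, limma adjusted p = 5.46e-08), and Hspa1a at 1734, 3739.7 and 4853 and 5.04, 10.1 and 6.67 (log2 difference -8.62 ± 0.38, limma adjusted p = 7.32e-07). The part of this difference in other decreases, such as that of Egr2, was not tested.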

How the data were processed

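Bulk RNA-seq of sorted mouse cells was made with Smart-seq2, a polyA protocol for few cells, per the labels' protocols. The deposited table gives FPKM per gene symbol, per the file headers. The submitters' processing notes name HISAT2 2.1.0, SAMtools 1.3.1, StringTie, STAR 2.5.1b, R and build mm10, without saying which tool made this table, and strand, annotation and the handling of reads that fit several genes are not given in the sources used here. Of the table's columns, 4 matched no sample and were not used, and the single-cell tables were not used here. The low values showed no common step, so depth is unknown and precision was judged from the spread between libraries only.

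Genes that reached 1 FPKM in 3 or more of the 6 libraries were tested on log2(FPKM + 1), with a pseudocount of 1 that understates changes of low genes, by limma 3.58.1 in R 4.3.3 (lmFit, eBayes with an intensity trend, 4 residual degrees of freedom, two-sided, Benjamini-Hochberg over the 11928 genes, threshold 0.05). Differentiating against proliferating and proliferating against fresh SMMC were fitted on the same genes, each with its own 6 libraries. The script was tested on simulated data.

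The genes named are the 12 largest increases and decreases past the threshold (at least 10 FPKM where higher, groups apart), up to 5 members per list and call by level, the sort genes, members called against their list, and 6 regulators. Genes outside this rule (Actc1, Actg2, Agtr1a, Cacna1s, Chrne, Cilp2, Col4a1, Comp, Gfap, Gja4, Gucy1a1, Lama4, the Lmod genes, Lrp4, Mkx, Myf6, Myh1, Myh2, Myh4, Myh7, Mymx, Ogn, Pdgfrb, Prkg1, Rapsn, Ryr1, Tie1 and those below the filter) were named after their values were seen. The comparison, its members and its lists were chosen with earlier results of these data known. Alternatives were a pseudocount of 0.1, a filter at 10 FPKM, no filter, TMM scaling (trimmed mean of M values), quantile normalization, Rn45s left out, 1 fit of all 11 bulk libraries, no intensity trend, a replicate block, and leaving out each library. Some list members are counted in the lists but not reported here by name.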

Additional observations from a re-analysis of the deposited data

How the results depend on the processing

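With a filter at 10 FPKM fewer genes were tested, and 1918 rather than 3969 were called lower than in fresh SMMC, with 0 tendon and 0 glial members higher in place of 1 and 1 and 13 glial members lower in place of 27. With the same filter, 1587 genes were higher and 1366 lower than in proliferating SMMC, and 2055 were lower in proliferating than in fresh SMMC. Leaving out each library in turn gave 3992 to 4285 genes higher and 3535 to 3912 lower in differentiating than in fresh SMMC, 69 to 73 vascular wall, 24 to 25 tendon and 27 to 28 glial members lower, and 118 to 124 skeletal muscle members higher. Jund, not called (-0.73, limma adjusted p = 0.558), was called higher without fresh replicate 3 (log2 difference 0.78, limma adjusted p = 0.00958). Leaving out each library in turn moved it over the range -1.53 to 0.78, and the cause was not tested. The samples share only a replicate number: deviations of same-numbered differentiating and fresh libraries correlated at -0.03, -4.93e-04 and 0.0926, and with the replicate number as a block 8218 genes were called rather than 8361 against fresh and 3719 rather than 4768 against proliferating SMMC. That block also called Bgn lower (log2 difference -1.24, limma adjusted p = 0.0197) and Mef2a higher (log2 difference 0.56, limma adjusted p = 0.0474) than in fresh SMMC, and 3 rather than 5 tendon genes higher than in proliferating SMMC. Without counts, the depth behind low values and zeros cannot be given.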

Other observations

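Chemokine ligands, a family chosen after its values were seen, were largely lost between fresh and differentiating SMMC. Of 18 Ccl and Cxcl genes tested, 13 were lower (33.3% of all genes tested), Ccl25 was higher (36.8%) and 4 were not called, with a median difference of -3.81. Cxcl1, which attracts neutrophils, stood at 1740.2, 1928 and 2206 FPKM in fresh and 0.647, 3.36 and 0.227 in differentiating libraries (log2 difference -9.88 ± 0.41, limma adjusted p = 5.42e-07). Ccl11, which attracts eosinophils, stood at 792, 959 and 1039 and 0.981, 0 and 0.128 FPKM (log2 difference -9.47 ± 0.27, limma adjusted p = 9.29e-08), and both genes were among the 12 largest decreases. Cxcl12, which retains blood stem cells in niches, stood at 337, 787 and 1189 FPKM in fresh, 214, 335 and 332 in proliferating and 13.5, 47.3 and 36.6 in differentiating libraries, called lower in differentiating SMMC against fresh (log2 difference -4.52 ± 0.54, limma adjusted p = 1.14e-04) and against proliferating (log2 difference -3.28 ± 0.47, limma adjusted p = 0.00296). Ccl2, which attracts monocytes, spread widely after differentiation, at 36.9, 128 and 3.29 FPKM against 1210.1, 981 and 1059.8 in fresh libraries, with differentiating replicate 2 the highest. In the 2 fresh MuSC libraries Cxcl1 was at 856 and 842 FPKM and Ccl2 at 109 and 119. Ccl11 was at 14.98 and 6.23 FPKM there, and Cxcl12 at 17.7 and 14.4. High levels of some chemokines were thus not particular to fresh SMMC, with the limit that the MuSC libraries differed in Rn45s content, as given above. Il6, an interleukin that is also induced by stress, stood at 373, 396 and 424 FPKM in fresh and 0.160, 0.311 and 0.0651 in differentiating libraries (log2 difference -8.41 ± 0.17, limma adjusted p = 2.31e-08).

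Some genes outside the lists, also chosen after their values were seen, were lower in proliferating than in fresh SMMC and higher in differentiating than in proliferating SMMC. Prnp, the prion protein, stood at 405, 262 and 241 FPKM in fresh, 31.9, 18.7 and 20.9 in proliferating and 325, 312 and 238 in differentiating libraries, and was not called against fresh (log2 difference -0.03 ± 0.23, limma adjusted p = 0.920). Cdkn1c, an inhibitor of the cell cycle, stood at 257, 159 and 160.01 FPKM in fresh, 3.76, 1.17 and 7.22 in proliferating and 272, 129.9 and 45.6 in differentiating libraries, and was not called against fresh (log2 difference -0.67 ± 0.55, limma adjusted p = 0.306), with 2 of the 3 differentiating libraries below every fresh one. Cd81, a tetraspanin, had means of 853, 410.4 and 857 FPKM in fresh, proliferating and differentiating SMMC. Msln, mesothelin, was called above fresh, at 24.5, 41.4 and 45.3 FPKM in fresh, 3.16, 1.79 and 1.01 in proliferating and 894, 869 and 748 in differentiating libraries (log2 difference 4.503 ± 0.23, limma adjusted p = 1.63e-06). Fgf21, a secreted metabolic hormone, did so too, from 7.44, 4.86 and 1.32 FPKM in fresh and 1.29, 0.540 and 0.386 in proliferating to 161, 238 and 122 in differentiating libraries (log2 difference 5.11 ± 0.45, limma adjusted p = 2.31e-05).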
